A study of Mus musculus with 5 samples.

Results

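The expression of 10 genes whose products sit on lipid droplets, or make or break down the fat they hold, was examined in single-nucleus RNA sequencing (snRNA-seq) of mouse liver. The genes were taken by symbol and make up 10 of the 32285 genes in the count matrices. They were the perilipins Plin2, Plin4 and Plin5, the CIDE family members Cidea, Cideb and Cidec, the triglyceride lipase gene Pnpla2 and its inhibitor G0s2, the droplet-associated dehydrogenase gene Hsd17b13, and the acyltransferase gene Mogat1. Their unique molecular identifiers (UMIs, each standing for 1 captured RNA molecule) were summed per library over hepatocyte nuclei, defined as nuclei with at least 2000 UMIs and at least 1 UMI of Hnf4a, a liver transcription factor gene. These were 23267 of 57080 nuclei.

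Both groups were wild-type male mice of the C57BL6/J strain. From an age of 10 to 12 weeks, they were kept for 5 months on regular chow or on a diet with 40% of its calories from fat and 20% from fructose, plus 2% cholesterol, which brings on metabolic dysfunction-associated steatohepatitis (MASH). The labels name the same diet "AMYLIN liver NASH diet". There were 3 chow libraries and 2 MASH libraries, made with a droplet-based kit from frozen liver tissue whose nuclei were sorted by flow cytometry. Whether a library held 1 mouse or a pool was not stated, so that the p-values below measure the spread between these libraries, part of which may be technical.

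A lipid droplet is a core of triglyceride and cholesteryl ester under a single layer of phospholipid, on which a set of proteins is held. Perilipins coat the droplet and limit the access of lipases, CIDE proteins move lipid between droplets so that large ones form or pass lipid on to secreted lipoproteins, and the lipase encoded by Pnpla2 takes the first fatty acid off a triglyceride. In the fatty liver, hepatocytes fill with such droplets. The liver lobule is also divided along the path of blood flow, from periportal hepatocytes near the portal tract to pericentral hepatocytes around the central vein, and the zones handle lipid differently.

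The depth of the 5 libraries ranged from 35612373 to 49137377 UMIs, and the hepatocyte nuclei of a library numbered 4222 to 7006 in chow and 2611 to 2684 in MASH, with median counts of 3871.5 to 5475 UMIs per nucleus. Median mitochondrial shares of UMIs in hepatocyte nuclei were 0.79%, 2.56% and 1.01% in chow libraries 1, 2 and 3. They were 2.61% and 0.43% in MASH libraries 1 and 2. All 7 genes of a hepatocyte check list, Alb and Cps1 among them, were found in the hepatocyte nuclei of each library. Nuclei that also carried at least 2 different markers of another lineage made up 7.33% to 14.7% of hepatocyte nuclei in chow and 28.6% to 33.8% in MASH. The results for hepatocyte nuclei were also computed without them. No doublet caller was run. Pairs of libraries shared 23 to 48 cell barcodes.

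Among hepatocyte nuclei, Plin4 and Cidec rose in MASH, by 4.13-fold and 2.86-fold, and none of the other 8 members passed the test. Called genes were those with an adjusted p under 0.05 by edgeR's quasi-likelihood test with Benjamini-Hochberg adjustment over all 15414 genes tested, and 2 of 10 members were called higher and 0 lower. Of all genes tested, 9.26% were called higher and 4.48% lower, so that a count of 2 among 10 does not set the members apart. At an unadjusted p under 0.05, 5 of 10 members passed. The share of all genes at that threshold is not given, so this count is not read as setting the members apart. The groups did not overlap for 7 members, of which 4 were higher in MASH and 3 lower, beside 30.1% of all genes that were higher without overlap and 24.2% that were lower. The members' median log2 fold change was 0.24, and that of all genes tested was 0.001.

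Levels are given as CPM, counts scaled to the library total and by the trimmed mean of M-values (TMM), and every level below is of that kind unless another is named. Levels of different genes were not compared, since the counts were not divided by transcript length. The scale matters for the members that stood lower. Plain library totals moved the median log2 fold change of all genes to 0.33, and counts relative to 12 secreted-protein genes of hepatocytes moved it to 1.60. In the reported fit, all 12 of these genes themselves stood lower in MASH, at a median log2 fold change of -1.42, and 4 were called lower. Dividing by them thus raises the values of other genes in MASH. Against the secreted-protein genes, Plin2, Plin5, Cideb, Pnpla2 and G0s2 turned from below 0 to above 0, while Plin4 and Cidec stayed called higher under each scaling tried. The share of called genes that were higher in MASH was 67.4% in the reported fit, 83.6% with plain totals, 53.8% with DESeq2 and 98.8% against the secreted-protein genes.

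**Figure D1:**
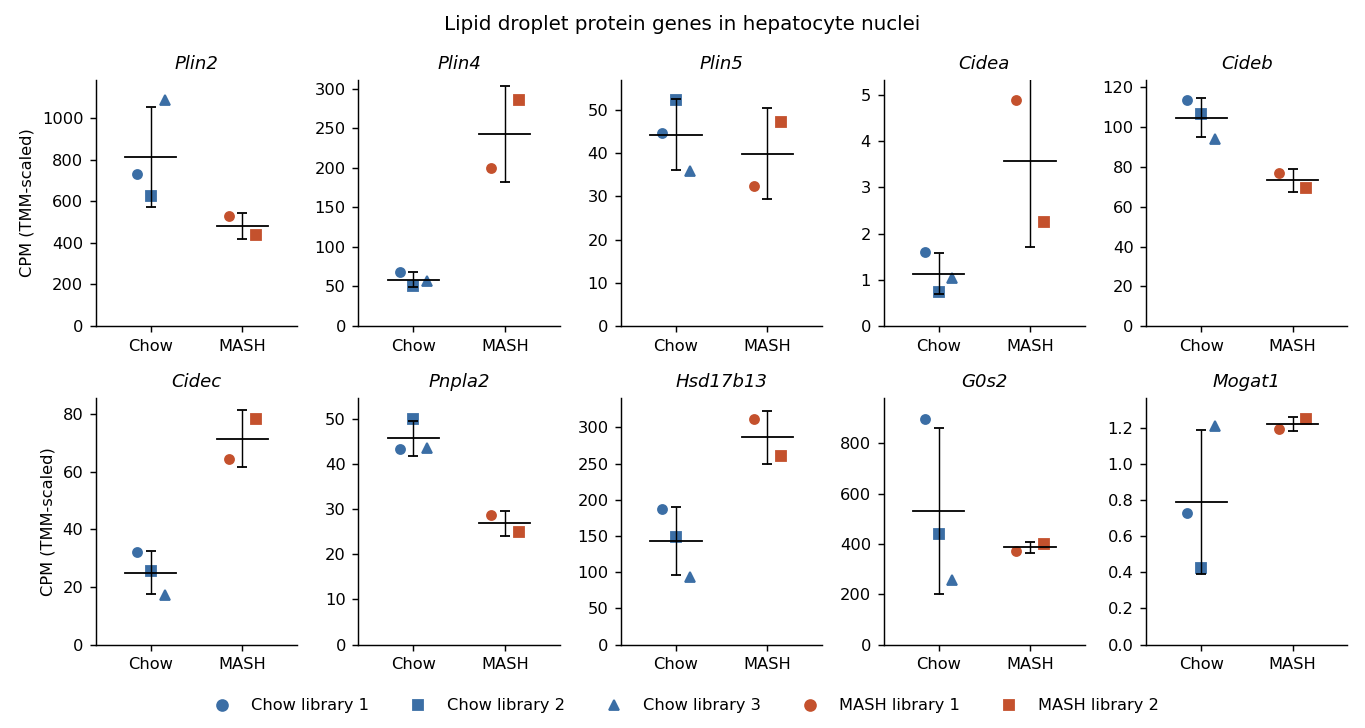
Levels of the 10 members in hepatocyte nuclei, in TMM-scaled CPM on a linear axis from 0. Each point is 1 library, the long bar is the group mean and the error bar is 1 SD (n = 3 chow and n = 2 MASH libraries). Plin4 and Cidec lie apart between the groups with each MASH point above the highest chow point, whereas Plin5, G0s2 and Mogat1 overlap.

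Of the perilipins, Plin4 had the clearest difference. Its product is a perilipin with a very long run of amphipathic repeats, best known from adipocytes, where it coats small new droplets. Plin4 stood at 68.4, 50.9 and 57.0 CPM in chow libraries 1, 2 and 3 and at 199.9 and 285 CPM in MASH libraries 1 and 2, from 1447 to 5934 UMIs per library. Each MASH value was thus above the highest chow value, with MASH library 2 the higher, and the group means were 58.8 ± 8.90 CPM (SD, n = 3) and 243 ± 60.3 CPM (SD, n = 2). The log2 fold change was 2.05 (SE 0.27, adjusted p = 0.00649), which is a 4.13-fold rise with a 95% confidence interval of 2.67 to 6.38. Without MASH library 2 the log2 fold change was 1.77 and the call was lost (adjusted p = 0.0652). The single remaining MASH library is then taken to vary like the chow libraries. Without the nuclei that carried markers of another lineage it was 2.21 (adjusted p = 0.00684). In GENCODE M21 (GRCm38) the gene lies on the minus strand of chromosome 17, from 56100591 to 56109803.

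Plin2, the perilipin that coats most droplets of the liver, went the other way without passing the test. It stood at 731, 625 and 1085 CPM in chow libraries 1, 2 and 3 and at 526 and 435 CPM in MASH libraries 1 and 2. The groups did not overlap, although chow library 3 stood far above the other chow libraries, and the log2 difference was -0.76 (SE 0.36, adjusted p = 0.186). Plin5, which is known for holding droplets against mitochondria in tissues that burn fat, had levels of 44.7, 52.2 and 35.9 CPM in chow and 32.4 and 47.2 CPM in MASH. These overlapped, and its log2 difference of -0.15 (adjusted p = 0.730) had a 95% interval from -0.79 to 0.48. Plin2 lies on chromosome 4 from 86648386 to 86670060 on the minus strand. Plin5 lies on chromosome 17 from 56111601 to 56117596, 1797 bases from Plin4 and on the same strand, and the neighbours thus differed in their fold changes, though the difference between them was not tested.

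Cidec, also called Fsp27, encodes the family member that fuses droplets in white adipocytes and in fatty liver. Its levels were 32.0, 25.6 and 17.3 CPM in chow libraries 1, 2 and 3 and 64.5 and 78.4 CPM in MASH libraries 1 and 2. The lower MASH value exceeded the highest chow value, and the log2 fold change was 1.52 (SE 0.29, adjusted p = 0.0190), a 2.86-fold rise with a 95% interval of 1.78 to 4.59. The call was lost without chow library 2 (1.48, adjusted p = 0.0663), without MASH library 1 (1.64, adjusted p = 0.103) and without MASH library 2 (1.37, adjusted p = 0.166). Cidec lies on the minus strand of chromosome 6, from 113424634 to 113435760.

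Hsd17b13 encodes a dehydrogenase that is made almost only in hepatocytes and is held on droplets. Its levels were 187, 149 and 92.9 CPM in chow libraries 1, 2 and 3 and 312 and 260.4 CPM in MASH libraries 1 and 2. The groups did not overlap, and the chow libraries spread over a wide range. The log2 difference of 1.0 (SE 0.33) did not pass the test over all hepatocyte nuclei (adjusted p = 0.0826). It did so without chow library 1, at 1.24 (adjusted p = 0.0414), and by DESeq2, at 0.96 (adjusted p = 0.0436). Hsd17b13 lies on the minus strand of chromosome 5, from 103955440 to 103977410.

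The sequences just before the starts of 4 of these genes, chosen for their results, are shown as a description. No result on expression was drawn from the sequences. Plin4 and Cidec are the members called higher in hepatocyte nuclei, Hsd17b13 was called in the pericentral part of the lobule, and Plin2 is the member whose diet difference varied with the zone. Each is the 250 bases before the RefSeq start in GRCm38, read 5′ to 3′ along the gene, all from the minus strand, and 9 of 10 members had an entry in the table used. Capitals mark matches to 1 of 6 motifs searched on both strands: the core site of nuclear receptors (AGGTCA), its direct repeat with 1 base between (AGGTCANAGGTCA), the letters CCAAT of the box of that name, the common core promoter box (TATAAA), the E-box (CACGTG) and the GC box (GGGCGG). The core site is part of the direct repeat, and no other of these motifs holds another. The window of Plin4 is chr17:56109783-56110032, that of Cidec chr6:113435761-113436010, that of Hsd17b13 chr5:103977389-103977638 and that of Plin2 chr4:86670060-86670309.
Plin4: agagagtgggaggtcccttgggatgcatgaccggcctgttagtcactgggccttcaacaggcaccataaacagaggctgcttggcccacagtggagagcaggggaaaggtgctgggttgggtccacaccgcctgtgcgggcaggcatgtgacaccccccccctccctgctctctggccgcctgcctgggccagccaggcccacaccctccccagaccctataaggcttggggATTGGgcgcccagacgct
Cidec: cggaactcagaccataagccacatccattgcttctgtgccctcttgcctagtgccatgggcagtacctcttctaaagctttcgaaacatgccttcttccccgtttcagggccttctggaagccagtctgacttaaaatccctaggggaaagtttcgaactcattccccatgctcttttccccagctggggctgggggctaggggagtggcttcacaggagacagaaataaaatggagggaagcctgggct
Hsd17b13: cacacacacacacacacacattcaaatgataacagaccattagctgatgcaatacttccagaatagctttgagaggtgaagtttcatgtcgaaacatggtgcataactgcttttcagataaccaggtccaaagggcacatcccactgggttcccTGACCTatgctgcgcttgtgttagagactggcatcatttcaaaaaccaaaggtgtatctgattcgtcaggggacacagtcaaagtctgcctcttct
Plin2: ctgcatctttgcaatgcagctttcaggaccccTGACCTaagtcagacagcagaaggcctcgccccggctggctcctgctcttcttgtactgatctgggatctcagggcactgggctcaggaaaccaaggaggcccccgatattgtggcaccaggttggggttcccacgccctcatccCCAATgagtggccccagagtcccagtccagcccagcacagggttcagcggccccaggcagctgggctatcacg
In these windows Plin4 had a CCAAT box on the opposite strand, 18 to 14 bases before the start. Hsd17b13 had a core site on the opposite strand, 96 to 91 bases before the start. Plin2 had a core site on the opposite strand, 218 to 213 bases before, and a CCAAT box 73 to 69 bases before. Cidec had none of the 6 motifs. Among all 32851 promoters of the same length, 14.0% held the core site, 33.8% the CCAAT box, 12.4% the core promoter box, 6.02% the E-box, 32.7% the GC box and 0.0335% the direct repeat, so that a match to the CCAAT box or the GC box is common. The called genes Plin4 and Cidec shared no motif of the set. The matches describe letters, not sites where a factor was bound.

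Of the lipase gene, its inhibitor and the acyltransferase gene, none passed the test. Pnpla2, which encodes adipose triglyceride lipase, was at 43.3, 49.98 and 43.5 CPM in chow libraries 1, 2 and 3 and at 28.7 and 24.8 CPM in MASH libraries 1 and 2. All 3 chow libraries were above both MASH libraries, at a log2 difference of -0.77 (SE 0.23, adjusted p = 0.06002). This passed without chow library 1 (-0.81, adjusted p = 0.0472), without chow library 3 (-0.86, adjusted p = 0.0359) and with DESeq2 (-0.81, adjusted p = 0.0139). G0s2, the inhibitor of that lipase, was at 897, 440.1 and 256 CPM in chow and at 371 and 401 CPM in MASH. Its chow libraries spread so widely that both MASH libraries fell between them, and the log2 difference was -0.46 (SE 0.51, adjusted p = 0.559), which turned to 0.15 without chow library 1. Mogat1, whose enzyme turns monoacylglycerol into diacylglycerol, was near the limit of what these counts can show, with 12 to 36 UMIs per library and levels of 0.422 to 1.21 CPM in chow and 1.19 to 1.25 CPM in MASH (log2 difference 0.63, adjusted p = 0.476). Pnpla2 lies on the plus strand of chromosome 7, from 141455198 to 141460743. G0s2 and Mogat1 lie on chromosome 1, from 193272161 to 193273217 and from 78510991 to 78538173.

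The other CIDE genes went in opposite directions, neither past the test. Cidea, best known from brown fat, was rare at 21 to 82 UMIs per library. Its levels were 1.61, 0.738 and 1.04 CPM in chow libraries 1, 2 and 3 and 4.89 and 2.26 CPM in MASH libraries 1 and 2, with no overlap (log2 difference 1.65, SE 0.53, adjusted p = 0.0750). The higher of the MASH values was that of library 1, and without it the log2 difference was 0.99 (adjusted p = 0.533), and the test was passed without chow library 1 (1.99, adjusted p = 0.0490). Cideb, the member that hepatocytes make in quantity and that takes part in loading lipid onto lipoproteins, was at 114, 107 and 94.2 CPM in chow and 77.2 and 69.3 CPM in MASH. All chow libraries were higher, at a log2 difference of -0.52 (SE 0.23, adjusted p = 0.160). Cidea lies on the plus strand of chromosome 18, from 67343604 to 67367785, and Cideb on the minus strand of chromosome 14, from 55754050 to 55758458. Plin4, Cidea, Cideb, G0s2 and Mogat1 overlap a gene on the opposite strand in the annotation, and none overlaps a gene on its own strand.

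**Figure D2:**
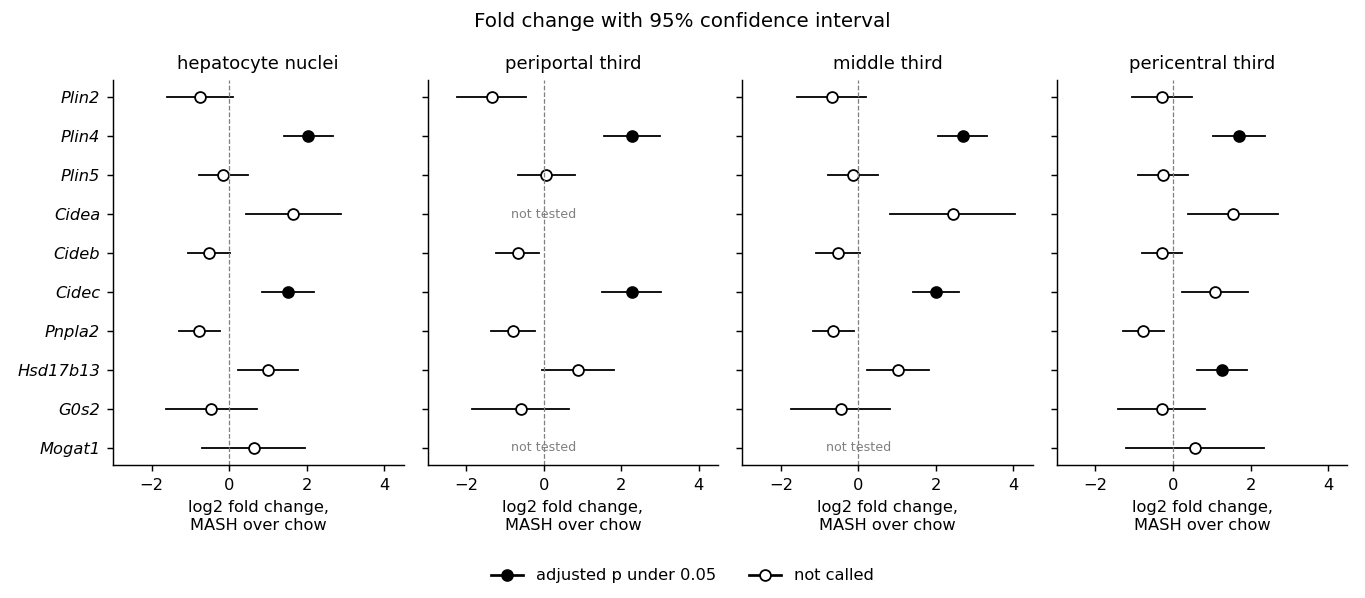
Log2 fold change of each member, MASH over chow, with its 95% confidence interval, in all hepatocyte nuclei and in the 3 parts of the zone score. Filled points passed the test (adjusted p under 0.05) and open points did not. Plin4 is filled in every panel, Cidec in all hepatocyte nuclei and in the periportal and middle parts, and Hsd17b13 in the pericentral part alone, with Mogat1 and Cidea not tested where their counts were too low.

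The share of nuclei in which a member was seen was compared as well. Each hepatocyte nucleus was thinned to 2000 UMIs, so that depth could not differ. Plin4 was then found in 11.6%, 7.83% and 7.25% of nuclei in chow libraries 1, 2 and 3 and in 28.9% and 41.9% in MASH libraries 1 and 2, a difference in means of 26.5 percentage points. Cidec was found in 5.45%, 3.97% and 2.21% of nuclei in chow and in 12.5% and 14.5% in MASH, a difference of 9.64 points. For both genes each MASH share exceeded the highest chow share, and the exact two-sided permutation test over libraries gave p = 0.1, the smallest that 3 against 2 libraries allow. Hsd17b13 was found in 30.7%, 23.7% and 14.1% of nuclei in chow and in 44.3% and 40.1% in MASH, without overlap, at p = 0.2 by the exact permutation test.

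Cidea was seen in at most 0.332% of chow nuclei and in 1.53% and 0.498% of MASH nuclei (exact permutation p = 0.1). Plin2 was detected in 70.5%, 60.3% and 71.9% of nuclei in chow and in 59.3% and 54.0% in MASH (exact permutation p = 0.2), so that most hepatocyte nuclei of every library held it. Pnpla2 also stood lower without overlap, at 9.19%, 8.30% and 6.17% in chow and 5.85% and 5.06% in MASH (exact permutation p = 0.2). After Benjamini-Hochberg adjustment over the 10 members, the permutation p was 0.333 for each of Plin4, Cidec, Hsd17b13, Cidea, Plin2 and Pnpla2. Shares without overlap were not counted over all genes. The shares of Plin5, Cideb, G0s2 and Mogat1 overlapped between the groups. G0s2 had the widest spread among them, from 19.9% in chow library 3 to 63.8% in chow library 1. The largest 95% Wilson interval of any of these shares reached 1.92 points to either side, which covers counting error only. Without thinning, the differences were 38.9 points for Plin4, 23.0 for Cidec and 26.9 for Hsd17b13, and Plin2 and Pnpla2 then overlapped.

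**Figure D3:**
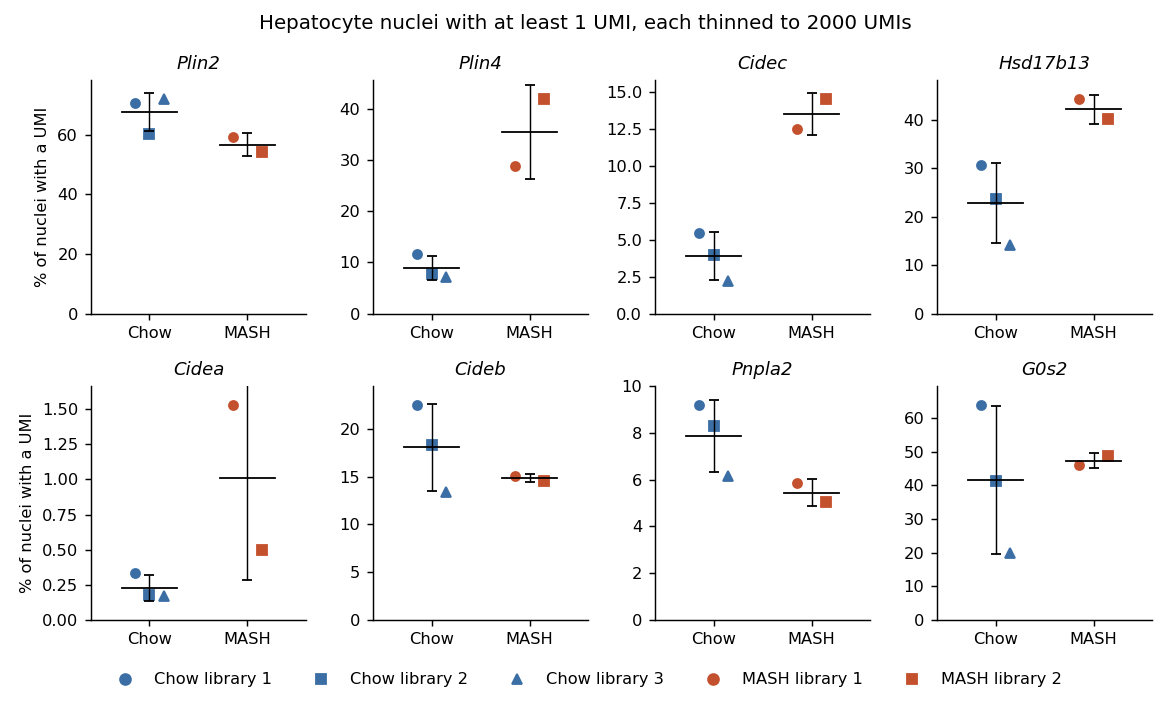
Percent of hepatocyte nuclei with at least 1 UMI of a member after thinning every nucleus to 2000 UMIs. Each point is 1 library, the long bar is the mean and the error bar is 1 SD (n = 3 chow and n = 2 MASH). Plin4, Cidec, Hsd17b13 and Cidea have both MASH libraries on top, Plin2 and Pnpla2 have them at the bottom, and Cideb and G0s2 overlap.

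Hepatocyte nuclei were then placed along the lobule. A zone score, pericentral minus periportal markers with 12 genes in each list, ranked the nuclei of each library, and the ranking was cut into 3 equal parts called periportal, middle and pericentral. None of the members was among the markers. From 15.3% to 17.3% of nuclei in a library lay within 0.1 SD of a cut, so the parts grade into each other. In the periportal part the pericentral markers made up a median of 3.73 to 9.15 UMIs per 10000 in chow and 4.56 to 8.10 in MASH, against 19.8 to 51.6 and 32.1 to 39.0 in the pericentral part. The periportal markers had a lower median in MASH, at 34.6 to 40.9 per 10000 in the periportal part against 51.8 to 64.5 in chow. In the pericentral part they stood at 7.44 to 9.07 in MASH and 19.5 to 28.0 in chow. In that part of chow library 3 their median (24.3) was above that of the pericentral markers (19.8). Equal parts of the ranking thus need not hold the same stretch of the lobule under both diets. How far this enters the diet differences by part and between parts was not tested.

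Within chow livers, 7 of 10 members differed between the outer parts, 5 of them higher pericentrally and 2 higher periportally, in a model with the library as a block. Of all 14148 genes in that fit, 11.7% were called higher pericentrally and 10.2% higher periportally. Cidec and Plin4 were pericentral, at log2 differences of 2.13 (SE 0.25) and 1.70 (SE 0.17), and Hsd17b13 was periportal, at -2.27 (SE 0.23), with adjusted p-values of 0.000159, 4.9e-05 and 5.89e-05. Plin5, Pnpla2 and G0s2 were called higher pericentrally by 0.36 to 0.38 on the log2 scale, and Plin2 was called higher periportally (-0.27, adjusted p = 0.0322).

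Within MASH livers, 6 members differed between the outer parts, beside 4.58% of all genes called higher pericentrally and 5.58% higher periportally. Plin4 (1.18), Cidec (1.04), Cidea (1.67), G0s2 (0.57) and Plin2 (0.74) were higher pericentrally on the log2 scale, and Hsd17b13 was higher periportally (-1.97). Hsd17b13 and the pair of Plin4 and Cidec thus kept their opposite zones under both diets. Plin2 was called on the periportal side in chow and on the pericentral side in MASH.

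The difference between the diets in that gradient passed the test for Plin2 alone, 1 of 10 members beside 2.06% of all genes tested. In the periportal part Plin2 stood at 814, 622 and 1206 CPM in chow libraries 1, 2 and 3 and at 372 and 323 CPM in MASH libraries 1 and 2. In the pericentral part it stood at 697, 585 and 928 CPM in chow and at 669 and 543 CPM in MASH. Levels were thus lower in both MASH libraries periportally, while the groups overlapped pericentrally. The fold change of MASH over chow was 1.002 higher on the log2 scale in the pericentral than in the periportal part (SE 0.12, 95% interval 0.73 to 1.28, adjusted p = 0.00352). Neither part passed by itself, at -1.34 (adjusted p = 0.0562) periportally and -0.28 (adjusted p = 0.607) pericentrally.

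The Plin2 interaction lay between 0.97 and 1.15 in each alternative, not always with its call. It was 0.98 (adjusted p = 0.0884) without MASH library 1 and 1.07 (adjusted p = 0.0903) without MASH library 2. Nuclei that carried markers of another lineage were commoner in the periportal part of MASH livers, at 34.1% and 37.9%, than in the pericentral part, at 21.1% and 26.0%. In chow they made up 8.23% to 14.9% and 6.18% to 11.8%. Without those nuclei the interaction of Plin2 was 1.005 (adjusted p = 0.00325). For Cidec the same difference was -1.10 on the log2 scale (SE 0.37, interval from -1.90 to -0.29), a flatter gradient in MASH that did not pass over all genes (adjusted p = 0.166). The values for Plin4 (-0.52, adjusted p = 0.352), Plin5 (-0.38, adjusted p = 0.368) and Cideb (0.36, adjusted p = 0.113) did not pass either, and the remaining 5 members had adjusted p-values of 0.567 to 0.975.

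**Figure D4:**
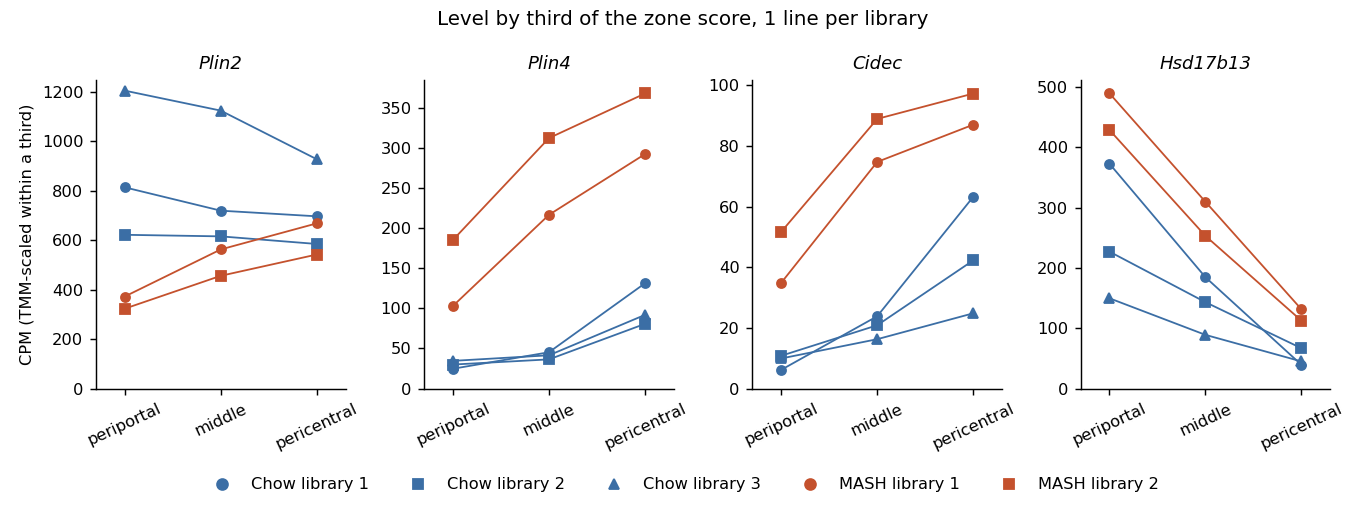
Levels of Plin2, Plin4, Cidec and Hsd17b13 in the periportal, middle and pericentral part of the zone score, in CPM scaled within each part, with 1 line per library. The lines of Plin2 fall toward the central vein in the 3 chow libraries and climb in both MASH libraries, whereas those of Plin4 and Cidec climb and those of Hsd17b13 fall under both diets.

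Between the diets, Plin4 was higher in MASH in every part of the lobule. In the periportal part it stood at 24.7, 29.95 and 34.5 CPM in chow libraries 1, 2 and 3 and at 103 and 185 CPM in MASH libraries 1 and 2 (log2 fold change 2.28, adjusted p = 0.00809). In the middle part the values were 45.3, 36.4 and 41.5 CPM against 217 and 312 CPM (2.69, adjusted p = 0.00413), and in the pericentral part they were 131, 80.7 and 91.9 CPM against 292 and 368 CPM (1.70, adjusted p = 0.0170). No part had an overlap between the groups. The periportal call was lost without MASH library 2 (adjusted p = 0.0939), and the pericentral call without chow library 2, MASH library 1 or MASH library 2 (adjusted p = 0.0536, 0.113 and 0.159). The middle call held in all 12 alternatives run for it.

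Cidec passed in the periportal and middle parts. Periportally it rose from 6.17, 10.8 and 9.93 CPM in chow libraries 1, 2 and 3 to 34.9 and 51.7 CPM in MASH libraries 1 and 2 (log2 fold change 2.26, adjusted p = 0.00915). In the middle part it rose from 23.9, 20.9 and 16.3 CPM to 74.8 and 89.0 CPM (2.01, adjusted p = 0.00822). In the pericentral part, where chow levels were already at 63.2, 42.3 and 24.8 CPM, the MASH levels of 87.0 and 97.3 CPM were above them without passing the test (1.09, adjusted p = 0.0982). Without MASH library 1 or 2, the periportal call was lost (adjusted p = 0.0643 and 0.111), as was the middle call (adjusted p = 0.0650 and 0.0986).

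Hsd17b13 passed in the pericentral part, the part where its levels were lowest. It rose there from 39.3, 66.9 and 45.0 CPM in chow to 131 and 113 CPM in MASH (log2 fold change 1.27, SE 0.28, adjusted p = 0.0325), a call that was lost without MASH library 1 (1.15, adjusted p = 0.262) or MASH library 2 (1.38, adjusted p = 0.193). The periportal values were 373, 227 and 149.8 CPM in chow and 489.8 and 429 CPM in MASH, with no overlap and no call (0.88, adjusted p = 0.170). The middle difference was 1.02 (adjusted p = 0.105). The diet effect of Hsd17b13 was not shown to differ between the outer parts (interaction adjusted p = 0.742), so a call in 1 part does not limit it to that part.

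Counted by part, 2 members were called higher and 0 lower in each of the 3 parts. Among all genes, 9.25% were called higher and 4.69% lower periportally, 5.85% and 2.82% in the middle, and 6.3% and 3.5% pericentrally. Cidea and Mogat1 were too rare to be tested periportally, as was Mogat1 in the middle part. Pnpla2 stood lower in MASH without overlap in each part, at log2 differences of -0.80, -0.64 and -0.76 (adjusted p = 0.0659, 0.117 and 0.0707). Cideb also stood lower without overlap in each part, at -0.67, -0.53 and -0.29 (adjusted p = 0.0973, 0.191 and 0.411). Cidea stood higher without overlap in the middle (2.43, adjusted p = 0.0697) and pericentral parts (1.56, adjusted p = 0.0875).

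Other liver cells were compared each within its own lineage. Nuclei with no Hnf4a UMI, at least 300 genes and at least 2 different markers of 1 lineage gave 250 to 510 stellate, 215 to 601 endothelial and 98 to 174 macrophage nuclei per chow library, and 1069 to 1283, 427 to 673 and 747 to 1298 per MASH library. Check markers held out of the choice, such as Des and Col3a1 for stellate cells, were present in every library. Nuclei chosen by cholangiocyte markers numbered 12 to 37 per chow library and had 2 to 4 of 5 check markers at 0 there, so they were not compared, and the remaining lineages were too few in chow. The RNA of hepatocytes was also high in these nuclei. The 12 secreted-protein genes stood at 87.4% to 162% of their level in hepatocyte nuclei of the same library, so that a member at or below that range is not read as expression by the cell type itself.

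Plin4 was the member called in these nuclei, higher in MASH in each of the 3 lineages. In stellate nuclei it stood at 19.1, 20.0 and 9.62 CPM in chow libraries 1, 2 and 3 and at 74.5 and 107 CPM in MASH libraries 1 and 2 (log2 fold change 2.48, adjusted p = 0.0108), from 5 to 16 UMIs in chow and 130 to 271 in MASH. In endothelial nuclei it stood at 22.6, 9.60 and 24.5 CPM against 108 and 95.4 CPM (2.33, adjusted p = 0.0124). In macrophage nuclei it stood at 39.6, 7.26 and 16.0 CPM against 110.3 and 106 CPM (2.34, adjusted p = 0.0307). No lineage had an overlap between the groups. The stellate call held without any 1 library, the endothelial call was lost without chow library 2, MASH library 1 or MASH library 2 (adjusted p = 0.0504, 0.0758 and 0.0515), and the macrophage call was lost without chow library 2, chow library 3, MASH library 1 or MASH library 2 (adjusted p = 0.106, 0.0930, 0.0708 and 0.0621). With at least 3 markers required, the endothelial value was 1.63 (adjusted p = 0.326) and Plin4 gave no value in macrophage nuclei.

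Set against hepatocyte nuclei of the same library, with no TMM scaling, the Plin4 level was 31.0% to 34.7% in stellate, 30.8% to 44.5% in endothelial and 31.4% to 40.5% in macrophage nuclei of MASH livers. This was below the range of the secreted-protein genes in each lineage, and Plin4 also rose in hepatocyte nuclei, so that its rise in the other nuclei and hepatocyte RNA in them cannot be told apart. Plin2 stood at 35.1% to 63.4% of the hepatocyte level in chow and at 37.4% to 64.0% in MASH over the 3 lineages.

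Counted over all members, 1 of 8 tested was called higher in stellate and in endothelial nuclei and 1 of 6 in macrophage nuclei, and none lower. Among all genes, 0.705% were called higher and 0.758% lower in stellate nuclei, 0.624% and 0.592% in endothelial nuclei, and 0.634% and 1.25% in macrophage nuclei. Cidec in stellate nuclei stood at 4.77, 8.55 and 7.69 CPM in chow and 37.2 and 24.1 CPM in MASH, and just missed the threshold (log2 difference 2.20, adjusted p = 0.0511). It was 1.09 (adjusted p = 0.404) in endothelial nuclei and was too rare to be tested in macrophage nuclei, with 0 to 4 UMIs per chow library. Hsd17b13 had log2 differences of 0.51, 0.72 and 0.75 in stellate, endothelial and macrophage nuclei and passed in none of them (adjusted p = 0.569, 0.476 and 0.444).

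**Figure D5:**
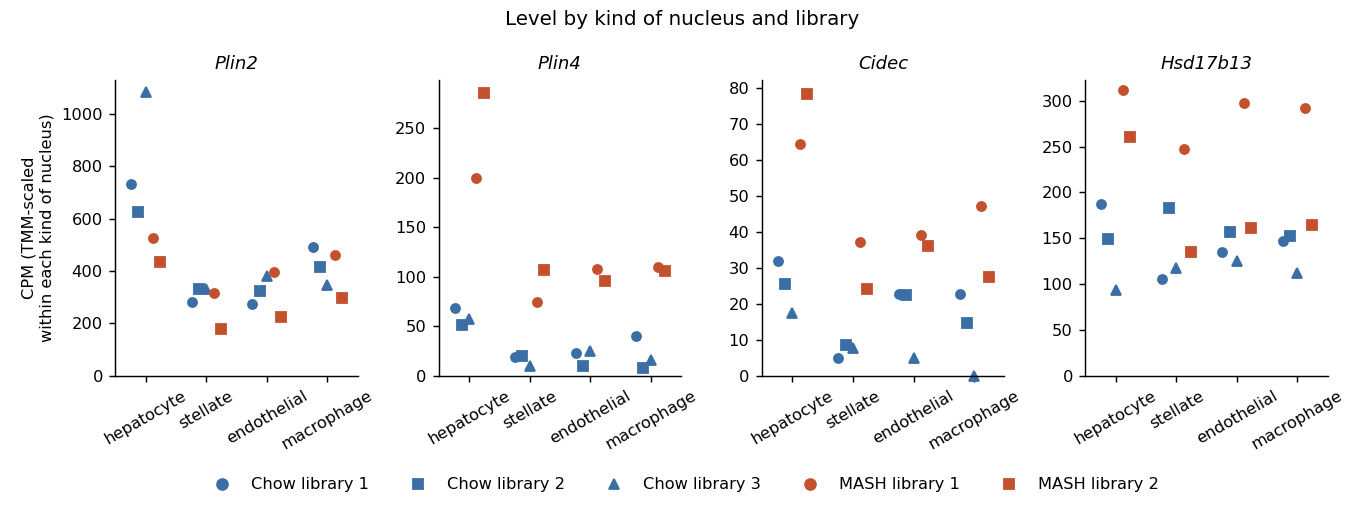
Levels of Plin2, Plin4, Cidec and Hsd17b13 by kind of nucleus, in CPM scaled within each kind, with 1 point per library. In each kind of nucleus, the MASH points of Plin4 lie above all chow points, and Cidec has none of its MASH points below a chow point of the same kind, while Plin2 overlaps outside hepatocytes.

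A wider set of droplet and fat-handling genes put the members in context. Of the further genes in 4 lists, 70 were found in the matrices by symbol and 68 were tested in hepatocyte nuclei, with 6 called higher and 6 lower. Beside these counts, 9.26% of all genes tested were called higher and 4.48% lower. Among 18 other droplet proteins tested, 2 were called lower, Hsd17b7 (-1.12), which also serves sterol synthesis, and Aup1 (-0.85), a droplet protein of the ubiquitin pathway. Among 16 genes of glyceride and sterol ester synthesis, Soat1 was called higher, at 2.09, and its enzyme esterifies cholesterol. Among 14 lipases and co-factors, Abhd5, the co-activator of the lipase made from Pnpla2, was called lower, from 37.0, 44.9 and 31.9 CPM in chow to 18.8 and 17.5 CPM in MASH (-1.06, SE 0.25, adjusted p = 0.0343). The carboxylesterase gene Ces3b was also called lower (-4.36, adjusted p = 0.0410), though chow library 3, at 106 CPM, was far below chow libraries 1 and 2, at 1107 and 1884 CPM.

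Among 20 regulators and genes of fatty acid uptake, 5 were called higher and 2 lower. Srebf1, the lipogenic transcription factor gene, rose by 2.53 on the log2 scale, Cd36, which encodes a fatty acid carrier, by 1.59, and the lipoprotein lipase gene Lpl by 3.56, from 4.78 to 7.77 CPM in chow to 65.2 and 74.7 CPM in MASH. Cd36 and Lpl are also made by macrophages and endothelial cells. With no TMM scaling, summed macrophage markers in hepatocyte nuclei stood at 33.8 to 49.6 CPM in chow and 117 to 217 CPM in MASH. Summed endothelial markers, on the same scale, stood at 54.8 to 174 CPM in chow and 119 to 144 CPM in MASH. Without the nuclei that carried markers of another lineage, an alternative added after seeing the data, Cd36 stood at 1.41 and lost its call (adjusted p = 0.0518), Lpl stood at 2.98 (adjusted p = 0.00328), and 11 of the 12 called genes of the 4 lists were still called. Vldlr rose by 3.80 and Fgf21, the gene of a hormone made by the stressed liver, by 4.47. Angptl4, an inhibitor of lipoprotein lipase, fell by 1.64 and Slc27a5, which activates very long fatty acids and bile acids, by 1.23. The median log2 differences of the lists were -0.41, -0.05, 0.01 and -0.01 in the order given, and that of all genes was 0.001.

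The members also varied from nucleus to nucleus. In nuclei thinned to 2000 UMIs, Plin4 and Cidec were found together in 50, 46 and 21 nuclei of chow libraries 1, 2 and 3 and in 140 and 195 nuclei of MASH libraries 1 and 2. If the genes were independent within each part of the lobule, 40.2, 25.5, 13.5, 108 and 168 such nuclei would be found, so the ratios were 1.24, 1.80, 1.55, 1.30 and 1.16. Without regard to the part, the ratios were 1.87, 2.19, 1.87, 1.44 and 1.23. In counts this sparse such ratios are a description only.

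Hepatocyte nuclei with UMIs of at least 2 of the 3 disease-associated hepatocyte markers Nrg1, Anxa2 and Sox4 are a range, not a cell type, and numbered 127 (4.73%) and 93 (3.56%) in the MASH libraries and 1 in all of chow. Near the cut lay 808 and 714 MASH nuclei with 1 of the 3 markers and 123 and 85 with 2. After thinning and with no TMM scaling, Plin4 stood at 149.6 and 263 CPM in the range in MASH libraries 1 and 2. In their other hepatocyte nuclei it stood at 217 and 344 CPM. Cidec stood at 106 and 102 CPM against 71.6 and 81.2 CPM. These values of the range came from 19 to 49 UMIs per gene and library. Plin2 stood at 823 and 565 CPM against 569.8 and 479.9 CPM. Hsd17b13 was also higher in the range in both libraries, at 406 and 495 CPM against 359 and 318 CPM. G0s2 was lower in both, at 240 and 382 CPM against 423 and 473 CPM. These differences were not tested. The markers were counted after thinning, and nuclei that also carried markers of another lineage were kept.

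Genes whose levels ran most alike with a member were sought over 15 sums, 3 parts of the lobule in each of 5 libraries, among 9023 genes. These sums share their libraries and 2 diets, and the correlations describe them without a test. The nearest to Plin4 were Fam126a (Pearson r = 0.980), Airn (0.979) and Slc4a4 (0.976), and the nearest to Cidec were Fam126a (0.982), Galnt2 (0.974) and Ube2e2 (0.971). Hsd17b13 ran most alike with Gm47405, Maml3 and Gm33543 (0.962 to 0.970) and Plin2 with Trappc4, Osgin1 and Slc25a5 (0.854 to 0.902). For Pnpla2 they were Cyp2c67, Cyp4a14 and Eci2 (0.939 to 0.940), for Cideb Aldh9a1, Pcyt2 and Fxyd1 (0.949 to 0.962), for G0s2 Marf1, Bbox1 and Wdtc1 (0.977 to 0.983), and for Plin5 Wdr33, Adat1 and Ube4a (0.916 to 0.927). Cidea and Mogat1 were too rare for this.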

How the data were processed

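Single-nucleus RNA of mouse liver was measured in 3 chow and 2 MASH libraries, grouped by title. The authors deposited raw UMI counts per gene and nucleus, made with Cell Ranger 8.0.1 (filtered barcodes, GRCm38, intronic reads left out, per the paper's methods and the labels). The members and lists were chosen with earlier results of these data known. Counts were summed per library over the nuclei of each kind, since nuclei are not replicates, and every gene that passed filterByExpr was fitted with edgeR 4.0.16 (R 4.3.3; TMM, quasi-likelihood, Benjamini-Hochberg). DESeq2 1.42.0, other filters and scales, and each library left out were the alternatives. Interactions used the library as a block. Other lineages were chosen by marker genes. Of 57080 barcodes, 362 had under 300 genes and were left out of those lineages. The tests were checked on simulated counts. All 10 members were named, with every called gene of the 4 further lists. Shares were tested with SciPy 1.17.1. Promoters came from RefSeq and gene positions from GENCODE M21.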

Additional observations from a re-analysis of the deposited data

Results flagged for a closer look

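The diet effect on Plin2 differed between the outer parts of the zone score, by a test of the difference itself. These parts need not hold the same stretch of the lobule under both diets. The log2 fold change of MASH over chow was 1.002 higher in the pericentral than in the periportal part (SE 0.12, adjusted p = 0.00352 by edgeR's quasi-likelihood test). Periportal levels were lower in 2 of 2 MASH libraries than in all chow libraries, whereas pericentral levels overlapped. The call was lost without MASH library 1 (0.98, adjusted p = 0.0884) or MASH library 2 (1.07, adjusted p = 0.0903).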

How the results depend on the processing

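Of 825 alternatives, 662 were labelled the same as the reported result, and 89 counts were labelled as moved. A single gene was the same if it kept direction and call, and a share difference if it kept direction alone. A count was the same if it was equal or close to the reported count. Among 563 for single genes, 25 lost a call, 38 gained one and 8 turned direction; the cause was not tested. In hepatocyte nuclei 5 members were called with DESeq2, 5 with Storey q-values and 6 relative to the secreted-protein genes (chosen after seeing the data), against 2. Calls over all 15414 genes grew too. DESeq2 called 1936 higher and 1662 lower, and the secreted-protein scale 8355 and 101, against 1427 and 690. The scale of the secreted-protein genes, which themselves stood lower in MASH, also turned Plin2 (0.91), Plin5 (1.44), Cideb (1.03), Pnpla2 (0.82) and G0s2 (0.87). Plain totals (likewise added later) turned Plin5 (0.17). Periportally, DESeq2 called 5. In stellate nuclei RLE size factors, DESeq2, no filter and the stricter filter each called 2, against 1. With at least 3 lineage markers, endothelial and macrophage nuclei had 0 called. With no filter the interaction had 3. Shares of all genes called are not given for Storey q-values, for these other comparisons or with 1 library left out. Those counts are therefore not read as results about the members. With 1 library left out the called members ranged from 0 to 5 in hepatocyte nuclei, 0 to 5 periportally, 1 to 4 in the middle, 0 to 4 pericentrally, 0 to 1 in endothelial and macrophage nuclei and 0 to 2 in the interaction. Plin5 then ranged from -0.45 to 0.085 and G0s2 from -0.86 to 0.15, and their differences in shares from -1.02 to 2.50 and from -5.08 to 16.8 points. Where a MASH library was left out, the other was taken to vary like chow. Chow and MASH share replicate numbers, which were taken as names only. The deviations of same-numbered libraries correlated at -0.13 and -0.20. With 2 MASH libraries the deviations mirror each other, so each chow library correlates with them at opposite signs. These values thus cannot decide whether the numbers mark pairs. With the replicate block, the stellate count was 0 (Plin4 2.16, adjusted p = 0.118), and the counts in the other 6 comparisons fitted were as reported. Depth limits Mogat1 and Cidea, with 12 to 82 UMIs per library, and the lineage values in chow.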
